A study of Mus musculus with 8 samples.

Results

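The 10 genes described here are products of mast cells, basophils and eosinophils, measured in cultures labelled as dendritic cells. They are the eosinophil granule genes Prg2, Ear1 and Ear6, the basophil and mast cell proteases Mcpt8, Prss34 and Cpa3, the IgE receptor chains Fcer1a and Ms4a2, the receptor Il1rl1 and the transcription factor Gata2. They were taken by name, with earlier results of these data known, and every probe matched to them was used. These were 12 probes for 10 genes, of 27509 named probes for 20887 genes on the array, and 9 of the 10 were among the 12706 genes that could be tested.

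The cultures came from bone marrow progenitor cells of female C57BL/6 mice, grown as monocytes with 10 ng/ml GM-CSF and with IL-4. There were 4 samples of immature dendritic cells, taken on day 6. The 4 mature samples were immature cells given 50 ng/ml LPS overnight and taken on day 7, so both groups had seen GM-CSF and IL-4. LPS is a cell wall component of Gram-negative bacteria, sensed through Toll-like receptor 4. The labels name no day 7 culture without LPS, so LPS and the further night in culture cannot be told apart. They give no sort, no dose of IL-4 and no statement that the replicates were separate animals or cultures. The p-values below therefore measure the spread between these samples, which may be technical.

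Each sample was hybridised to its own one-colour array. Levels are log2 processed signals minus the array's 75th percentile, so that 0 stands for the signal that 75% of the spots did not exceed. Between 47.5% and 51.3% of the 59305 spots outside the controls were well above background, and no spot was saturated. The lowest level called above background lay between -5.00 and -4.21. All 8 arrays sat on 1 slide, immature in one row and LPS in the other, so row and treatment cannot be told apart. Immature replicate 3 stood apart from the other immature arrays, with a median absolute log2 difference from them of 0.254 to 0.387. Immature replicates 1 and 2 were the closest pair, at 0.0941. The dendritic cell markers Itgax and H2-Aa were high on all arrays, at means of 7.24 and 7.11 before LPS. After it they were lower, at 6.25 and 6.35. Of the dendritic cell list, Zbtb46, Flt3 and Ly75 stood at only -1.76, -1.72 and -4.26 before LPS, and the other tested genes lay above 0. Xcr1 was not well above background on any array. The macrophage gene Csf1r stood at 8.14 before LPS. Zbtb46, Ly75 and Csf1r are named with their values known.

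Mast cells, basophils and eosinophils are granule-bearing cells of type 2 immunity and of the defence against parasites. They share GATA factors as regulators of their development and grow from bone marrow progenitors under cytokines that include IL-3, IL-5, GM-CSF and stem cell factor. Their granules hold proteases, ribonucleases and basic proteins, and mast cells and basophils bind IgE through a high-affinity receptor built from an alpha chain (Fcer1a), a beta chain (Ms4a2) and a shared gamma chain (Fcer1g). Bone marrow grown with GM-CSF gives mixed cultures that can hold such cells beside dendritic cells and macrophages.

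The sequences around the transcription starts are shown because GATA factors bind a short motif, here searched as GATAA on either strand (TTATC on the strand shown). Promoters were taken from RefSeq (GRCm38.p6), from 250 bases before each start to 50 after it. Entries were found for 9 of the 10 genes, 11 promoters in all, with Prg2 the exception. The letters occurred at least once in 8 of these 11 promoters, against 8347 of 32851 promoters of that length in the table (25.4%). The lines below give 120 bases before and 20 after the start, 5' to 3' along the gene, with the motif in capitals.
Ear1, chr14:43819620-43819759, minus strand: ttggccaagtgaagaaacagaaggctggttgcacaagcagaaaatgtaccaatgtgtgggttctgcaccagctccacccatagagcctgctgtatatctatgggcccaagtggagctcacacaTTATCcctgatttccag
Ear6, chr14:51853648-51853787, plus strand: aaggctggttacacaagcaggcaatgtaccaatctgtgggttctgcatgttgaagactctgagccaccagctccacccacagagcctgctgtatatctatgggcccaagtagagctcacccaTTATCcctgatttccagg
Prss34, chr17:25298274-25298413, plus strand: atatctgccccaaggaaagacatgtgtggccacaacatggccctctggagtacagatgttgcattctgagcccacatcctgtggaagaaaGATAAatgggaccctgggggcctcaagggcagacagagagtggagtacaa
Mcpt8, chr14:56085178-56085317, minus strand: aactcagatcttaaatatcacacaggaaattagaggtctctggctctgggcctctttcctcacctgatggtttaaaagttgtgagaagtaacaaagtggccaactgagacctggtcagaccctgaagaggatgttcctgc
Cpa3, chr3:20242162-20242301, minus strand: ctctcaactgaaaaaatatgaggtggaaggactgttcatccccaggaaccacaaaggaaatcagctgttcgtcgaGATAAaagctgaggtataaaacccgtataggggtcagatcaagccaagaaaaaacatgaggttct
Fcer1a, chr1:173227210-173227349, minus strand: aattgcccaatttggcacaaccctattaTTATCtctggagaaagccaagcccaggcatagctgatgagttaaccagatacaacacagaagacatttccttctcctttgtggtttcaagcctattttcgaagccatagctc
Ms4a2, chr19:11623700-11623839, minus strand: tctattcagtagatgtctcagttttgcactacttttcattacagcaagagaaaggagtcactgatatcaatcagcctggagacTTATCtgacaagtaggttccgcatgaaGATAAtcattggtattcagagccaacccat
Il1rl1 start 1, chr1:40429450-40429589, plus strand: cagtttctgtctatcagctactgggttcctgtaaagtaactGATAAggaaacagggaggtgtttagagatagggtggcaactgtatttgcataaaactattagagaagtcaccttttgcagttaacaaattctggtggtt
Il1rl1 start 2, chr1:40439509-40439648, plus strand: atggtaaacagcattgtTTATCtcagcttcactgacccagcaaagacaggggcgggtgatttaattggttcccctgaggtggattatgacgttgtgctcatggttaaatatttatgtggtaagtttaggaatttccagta
Cpa3, Fcer1a and Prss34 each had 1 match, at 45, 92 and 30 bases before the start, counted to the first base of the motif. Ms4a2 had 3, at 224, 37 and 10 bases before it, a number reached by 0.938% of all promoters. The upstream start of Il1rl1 had 2, at 216 and 79 bases before it, and the downstream start had 1, at 103. Ear1 and Ear6, whose promoters were 80.7% identical when aligned, carried it just inside the transcript, 3 and 2 bases past the start. Mcpt8 and both annotated starts of Gata2 held no match in this window. Matches more than 120 bases before a start lie outside the lines shown. A match to these letters is a description of the sequence and no measure of binding.

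Expression of 8 of the 9 tested genes fell after LPS and none rose, in limma's moderated test with Benjamini-Hochberg adjustment over all tested genes at an adjusted p of 0.05. Over all genes 56.1% changed, 24.7% downward and 31.4% upward. In each of the 8 the LPS arrays all lay below the immature arrays, which was so for 22.3% of all genes, and in none of the 9 did they all lie above (30.1% of all genes). Each of the 8 fell by at least 1 on the log2 scale, against 8.76% of all genes. For Fcer1a, which was dim, that size is not firm, as it was -0.58 with normexp background correction. The median log2 fold change of the 9 was -1.96, beside 0.06 over all tested genes. The ninth, Gata2, did not pass the test, and Ms4a2 was too dim to be tested. The count was also 8 with each single array left out, and with immature replicate 3 and LPS replicate 4 left out together. Fcer1a entered the test through its immature arrays alone, which favours a fall. With a probe required above background on all arrays, Fcer1a was not tested. Then 7 of 8 fell, beside 2885 of 11939 over all genes. In RNA from a whole culture, fewer cells of a type and less of the RNA per cell cannot be told apart, which holds for each result below.

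**Figure D1:**
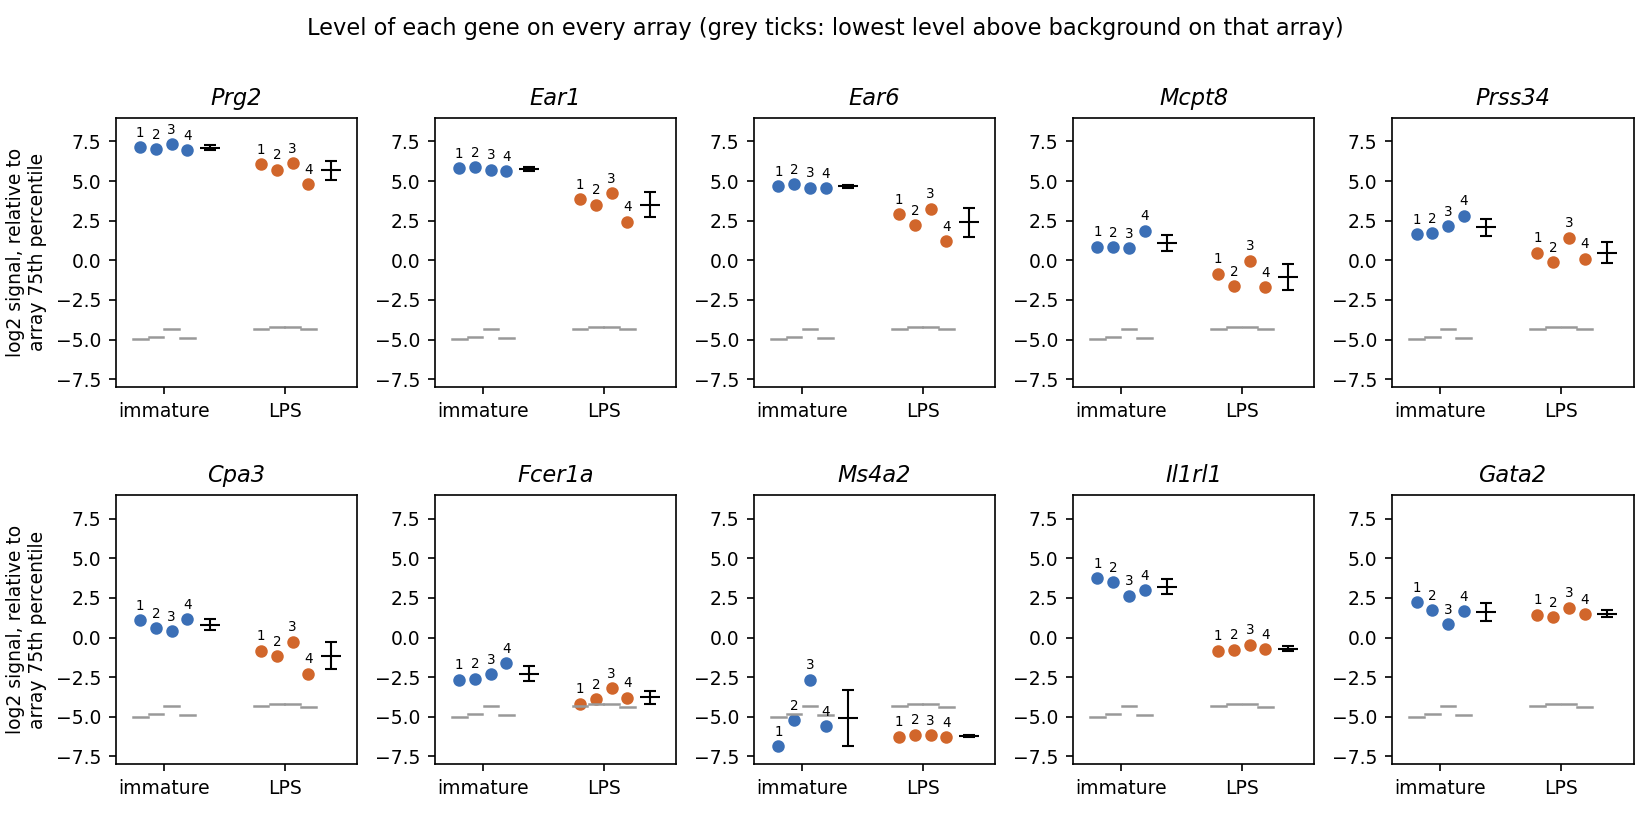
Level of the 10 genes on each array (log2 processed signal minus the array's 75th percentile), immature replicates 1 to 4 in blue and LPS replicates 1 to 4 in orange, with the mean and SD of each group beside them in black (n = 4) and grey ticks at the lowest level called above background. The groups are apart for every gene except Gata2 and Ms4a2, and Ms4a2 is above its tick on immature replicate 3 alone.

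Prg2 encodes the major basic protein that forms the crystalline core of eosinophil granules. Its processed signals were 69465, 61188, 72411 and 56010 on immature replicates 1 to 4 and 27539, 20728, 27325 and 11608 on LPS replicates 1 to 4. As levels these were 7.15, 7.0, 7.31 and 6.96 before LPS and 6.06, 5.70, 6.12 and 4.79 after it. The immature arrays lay close together, and LPS replicate 4 lay below the other LPS arrays. Prg2 fell 2.71-fold, from 7.10 ± 0.16 to 5.67 ± 0.61 (SD, n = 4), a log2 fold change of -1.44 ± 0.28 (SE, limma, adjusted p = 0.00254). It was well above background on all 8 arrays, so the gene was still measured after LPS.

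Ear1 and Ear6 belong to the eosinophil-associated ribonucleases, a family of secreted enzymes that multiplied in rodents. Ear1 stood at 5.81, 5.85, 5.72 and 5.62 on the immature arrays and at 3.87, 3.50, 4.23 and 2.43 on the LPS arrays. Ear6 stood at 4.69, 4.82, 4.58 and 4.55 before LPS and at 2.90, 2.20, 3.25 and 1.19 after it. Both genes had their highest LPS value on replicate 3 and their lowest on replicate 4, with a wide gap to the immature arrays. Ear1 fell 4.73-fold, by a log2 fold change of -2.24 ± 0.34 (SE, limma, adjusted p = 0.000724). Ear6 fell 4.84-fold, by -2.28 ± 0.39 (SE, limma, adjusted p = 0.00150). The Ear genes are close copies of each other, and the specificity of their probes was not checked, so the change cannot be assigned to 1 copy with certainty.

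The other eosinophil genes on the array mostly moved in the same direction. Of 12 tested genes in that list, 8 fell, 1 rose and 3 did not pass, with a median log2 fold change of -1.73. Ear10 fell 5.30-fold and Rnase2a, another eosinophil ribonuclease, fell 4.57-fold. Epx, the eosinophil peroxidase, was even on the immature arrays, at 4.44, 4.44, 4.47 and 4.48, and stood at 3.25, 2.95, 3.71 and 2.09 on the LPS arrays. It fell 2.74-fold (log2 fold change -1.46 ± 0.30, SE, limma, adjusted p = 0.00333). Siglecf, a sialic acid receptor of eosinophils, fell 4.15-fold, and Adgre1, an adhesion receptor that macrophages also carry, was the 1 gene that rose, 1.91-fold. Ear2 and Prg3, named after their values were seen, fell 4.16-fold and 4.02-fold. Probe specificity was not checked for Ear2, Ear10 and Rnase2a either, so the falls of these ribonucleases may not be separate. The receptor subunit Il5ra, through which IL-5 acts on eosinophils, stood at -2.04 ± 0.21 before and -1.68 ± 0.81 after LPS and did not pass the test (limma, adjusted p = 0.415). It too is named with its values known. Rnase2b was not well above background on any array, and Ear11, Ear14 and Siglec5 had no matched probe. Cd24a and Adgre1 of this list also stand in the dendritic cell and macrophage lists, and Cebpe in the neutrophil list.

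Mcpt8 encodes mast cell protease 8, which despite its name marks basophils. It stood at 0.86, 0.84, 0.76 and 1.86 on the immature arrays and at -0.85, -1.64, -0.02 and -1.71 on the LPS arrays. Immature replicate 4 was high, the other immature arrays were nearly equal, and LPS replicate 3 came closest to the immature range without reaching it. Mcpt8 fell 4.39-fold (log2 fold change -2.14 ± 0.41, SE, limma, adjusted p = 0.00247).

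Prss34, or mast cell protease 11, is a tryptase of basophils and mast cells. It was measured at 1.64, 1.71, 2.15 and 2.80 before LPS and at 0.49, -0.11, 1.41 and 0.10 after it. The top LPS value, on replicate 3, lay just under the lowest immature value. Prss34 fell 3.03-fold (-1.60 ± 0.37 on the log2 scale, SE, limma, adjusted p = 0.00630), the highest adjusted p of the 8.

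Cpa3 encodes carboxypeptidase A3, which mast cells and basophils store with their proteases. Its processed signals were 1060, 728, 607 and 1001 on the immature arrays and 233, 174, 328 and 86.2 on the LPS arrays. On the scaled axis the values were 1.11, 0.61, 0.41 and 1.15 before and -0.83, -1.19, -0.26 and -2.29 after LPS. LPS replicate 3 was again the highest of its group and replicate 4 the lowest. Cpa3 fell 3.90-fold (log2 fold change -1.96 ± 0.40, SE, limma, adjusted p = 0.00341).

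Beyond these proteases the basophil and mast cell lists were mixed, with shares called not far from those of all tested genes. For these and the lists below, the shares over all tested genes were 24.7% lower and 31.4% higher. Of 13 tested basophil genes 4 fell, 3 rose and 6 did not pass, with a median log2 fold change of -0.19, which was -0.53 without immature replicate 3. Cyp11a1, a steroid-making enzyme, fell 2.96-fold, and Cd200r3, a surface receptor of basophils and mast cells, fell 1.71-fold (log2 fold change -0.78 ± 0.23, SE, limma, adjusted p = 0.0184). Grm6 fell by a log2 fold change of -1.32 ± 0.30 but was above background on only 1 LPS array, and with normexp background correction its call was lost (limma, adjusted p = 0.0715). Osm, the cytokine oncostatin M, rose 3.38-fold. The summed level of the list, in units of the 75th percentile, was 529 to 565 on the immature and 410 to 538 on the LPS arrays. Ifitm1 and Lilrb4a, named with their values known, carried most of it, at means of 8.08 and 7.60 before LPS and 7.89 and 7.09 after it. Cd200r3 stood at 0.69 and -0.09, so the sum says little about it. Such sums, here and below, follow the brightest genes of a list. Il4, the basophil cytokine that was also added to these cultures as protein, stood at -1.40 ± 0.52 before and -1.99 ± 0.35 after LPS and did not pass (limma, adjusted p = 0.0974). It is named after its values were seen.

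Of 10 tested mast cell genes 2 fell, 3 rose and 5 did not pass, with a median log2 fold change of -0.16. With each array centred on its median, 4 fell, and with no scaling 5 did. The connective tissue and mucosal mast cell proteases Cma1, Mcpt1, Mcpt4 and Mcpt9, the tryptase Tpsg1 and the receptors Mrgprb1 and Mrgprb2 were not well above background on any array. Tpsb2 was above it on 3 immature and 2 LPS arrays and Mcpt2 on 1 immature array, and Tpsab1 had no matched probe. Adora3, an adenosine receptor that acts on mast cell degranulation, fell 2.56-fold.

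The mast cell growth factor receptor and the histamine enzyme went the other way from Cpa3. Kit, the receptor of stem cell factor, rose 3.82-fold (log2 fold change 1.93 ± 0.15, SE, limma, adjusted p = 2.30e-05). Hdc, which makes histamine, stood at 1.95, 1.88, 1.06 and 1.57 before LPS and at 4.21, 4.16, 4.82 and 5.85 after it. The groups were far apart, and LPS replicate 4, low for Cpa3 and Prg2, was the highest for Hdc. Hdc rose 8.86-fold (3.15 ± 0.38 on the log2 scale, SE, limma, adjusted p = 0.000225). Both genes are also known from other blood cells, and which cells carried them was not tested. The summed level of the mast cell list was 46.7 to 53.1 before and 69.1 to 119 after LPS. Its brightest gene after LPS was Hdc, at a mean level of 4.76.

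**Figure D2:**
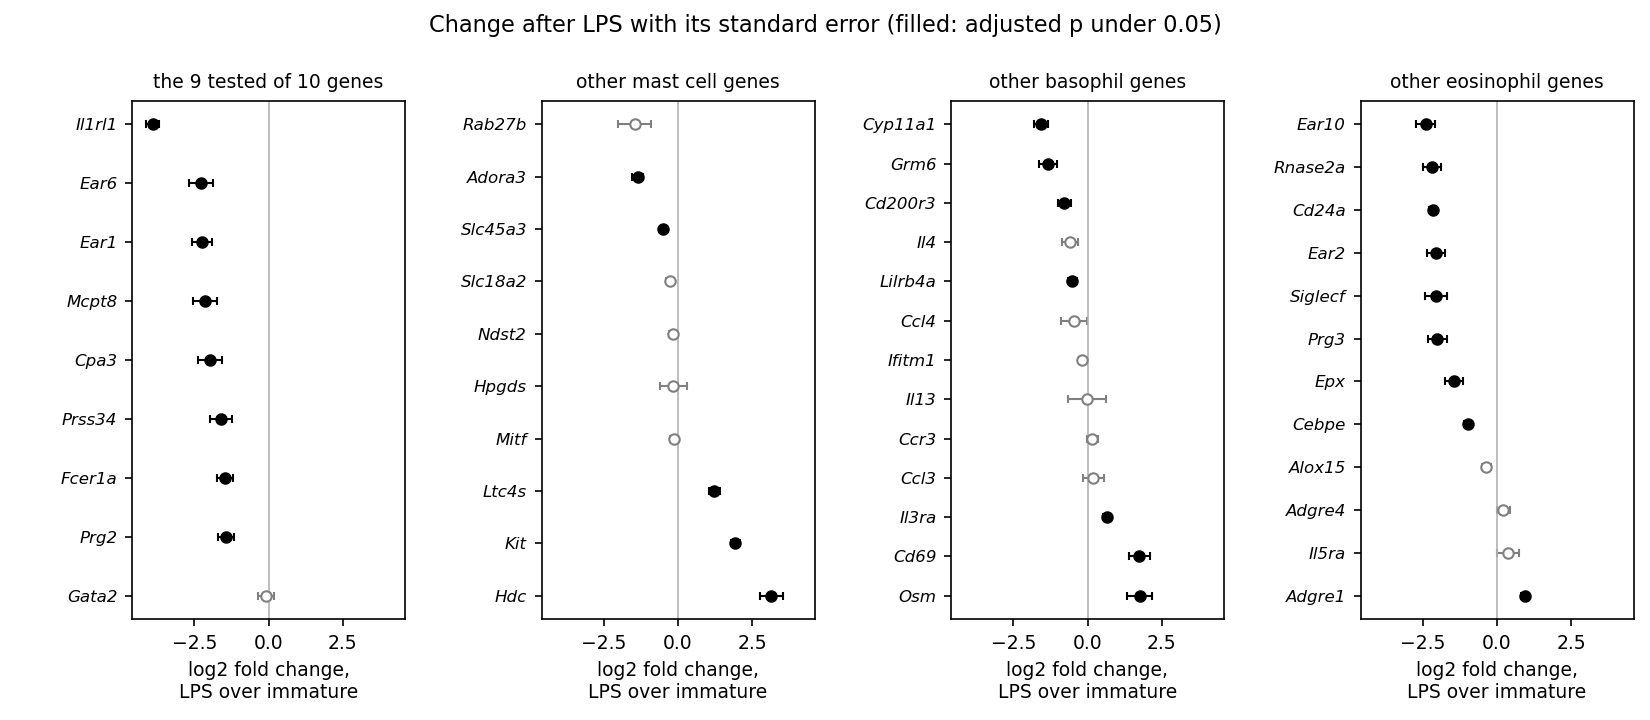
Log2 fold change of each tested gene (LPS over immature) with its standard error (limma, n = 4 a group), for the 9 tested genes and for the other mast cell, basophil and eosinophil genes; filled symbols have an adjusted p under 0.05. Of the 9, 8 have filled symbols left of 0, as do 8 of the 12 eosinophil genes, while Kit and Hdc lie to the right; Fcer1a, Rab27b, Grm6 and Hpgds were below background on some or all LPS arrays, so their points are not firm sizes.

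Fcer1a encodes the alpha chain of the high-affinity IgE receptor, the chain that binds IgE. It was dim, at -2.66, -2.59, -2.31 and -1.63 on the immature arrays and -4.16, -3.87, -3.18 and -3.79 on the LPS arrays. All immature values lay above all LPS values, and on LPS replicate 1 the probe was not well above background. The fitted fall was 2.74-fold (log2 fold change -1.46 ± 0.27, SE, limma, adjusted p = 0.00222). This size rests on how dim spots are handled: with normexp background correction the log2 fold change was -0.58 (limma, adjusted p = 0.0118).

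Ms4a2, the beta chain that amplifies the signal of the same receptor, was well above background on 1 of 8 arrays. Its processed signals were 4.24, 13.0, 72.9 and 9.40 on immature replicates 1 to 4 and 5.45, 5.64, 5.45 and 5.44 on the LPS arrays. The measured array was immature replicate 3, which also stood apart over all genes. No fold is given for Ms4a2, since neither group was measured on all its arrays.

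The gamma chain gene Fcer1g did not follow Fcer1a. It rose 1.76-fold, from 7.54 ± 0.07 to 8.35 ± 0.15 (SD, n = 4; log2 fold change 0.81 ± 0.09, SE, limma, adjusted p = 0.000153), and is named after its values were seen. The gamma chain also serves Fc receptors of macrophages and dendritic cells. Of 15 tested genes of the IgE receptor signalling list, Fcer1g among them, 7 fell, 5 rose and 3 did not pass, with a median log2 fold change of -0.26. Lat2, an adaptor in signalling from the receptor, fell 2.40-fold and the kinase subunit Pik3cd 1.91-fold. The Src family kinase Fyn rose 1.92-fold, with overlap between the groups. These signalling genes act in many leukocytes besides mast cells and basophils.

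Il1rl1 encodes ST2, the receptor for the alarmin IL-33, carried by mast cells, basophils and type 2 lymphocytes. It had 3 probes. The brightest stood at 3.75, 3.48, 2.65 and 2.97 on the immature arrays and at -0.82, -0.76, -0.45 and -0.74 on the LPS arrays. The groups were far apart, and the LPS arrays lay closer together than the immature arrays, whose lowest value was on replicate 3. Il1rl1 fell 15.0-fold, from 3.21 ± 0.50 to -0.69 ± 0.17 (SD, n = 4), a log2 fold change of -3.90 ± 0.23 (SE, limma, adjusted p = 5.50e-06). Ordered from the lowest log2 fold change, it was at place 34 of the 12706 genes tested. The other 2 probes of Il1rl1 were above background on all 4 immature arrays and on none of the LPS arrays. They give bounds of at least 4.67-fold and 4.83-fold lower. For these the LPS arrays were taken at the higher of the probe's own level and the lowest level above background. The fit over all probes used the probes' own levels, with log2 fold changes of -4.15 and -4.26 (limma, adjusted p = 1.78e-05 and 6.48e-06). Those p-values rest on levels below background and do not test the bounds. All 3 probes thus changed in 1 direction. The brightest probe and 1 of the dim probes were matched to the same transcript, and the remaining probe to another. Whether they separate the soluble from the membrane form of ST2 was not checked.

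The ligand of that receptor changed in the opposite direction. Il33 rose 4.09-fold, from -2.58 ± 0.16 to -0.54 ± 0.10 (SD, n = 4; log2 fold change 2.03 ± 0.10, SE, limma, adjusted p = 1.97e-06). Of 10 tested genes among the growth factors, alarmins and receptors of these lineages, 2 fell, 3 rose and 5 did not pass, with a median log2 fold change of -0.03. Il17rb, the receptor for IL-25, was above background on no immature and on all 4 LPS arrays and was at least 2.72-fold higher after LPS. That bound holds for the processed signal only. Over the alternatives the log2 fold change of Il17rb went as low as 0.91. Kitl, the ligand of Kit, was above background on all immature and on no LPS arrays and at least 1.25-fold lower, a call that was lost with normexp background correction (limma, adjusted p = 0.262). Il5, Csf2, Il25 and Il9r were not well above background on any array.

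Gata2 encodes a transcription factor of blood progenitors that mast cells and basophils keep. It stood at 2.22, 1.73, 0.85 and 1.65 on the immature arrays and at 1.43, 1.30, 1.87 and 1.46 on the LPS arrays. The LPS values lay inside the immature range, whose top was replicate 1 and whose bottom was replicate 3. The means were 1.61 ± 0.57 and 1.52 ± 0.25 (SD, n = 4), and the log2 fold change of -0.09 ± 0.27 (SE) did not pass the test (limma, adjusted p = 0.785). Over the alternatives it ranged from -0.35 to 0.11, with adjusted p between 0.136 and 0.958, so no direction is given. Without immature replicate 3 it was -0.35.

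Other regulators of these lineages did change. Of 18 tested transcription factor genes 9 fell, 7 rose and 2 did not pass, with a median log2 fold change of -0.55. Gata3, best known from T cells and type 2 lymphocytes, fell 3.47-fold and Cebpa, which directs granulocyte development, fell 3.38-fold. Gata1, which eosinophils and mast cells need, fell 2.14-fold (log2 fold change -1.10 ± 0.11, SE, limma, adjusted p = 7.47e-05). Cebpe, which acts late in eosinophil and neutrophil development and stands in the eosinophil list, fell 1.98-fold. Both are named with their values known. Stat5a, which relays signals of the GM-CSF, IL-3 and IL-5 receptors, rose 1.80-fold.

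Within a group, the 9 tested genes differed in how they varied from array to array. LPS replicate 3 had the highest LPS level in all 9, against 19.7% of all tested genes, a count looked for after the values were seen. LPS replicate 4 had the lowest in 5 (Prg2, Ear1, Ear6, Mcpt8 and Cpa3), against 31% of all genes. Immature replicate 4 had the highest immature level in 4 (Cpa3, Mcpt8, Fcer1a and Prss34), against 15.6% of all genes.

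Deviations from the group means were correlated between genes as a description over 8 arrays. Arrays enter every gene of a pair, so shared array effects are included. Pearson's r was 0.99 between Ear1 and Ear6, 0.95 between Ear1 and Prg2 and 0.94 between Epx and Prg2. The Ear probes were not checked for specificity, so Ear1 and Ear6 may share signal. For Mcpt8, Prss34 and Fcer1a it was 0.93 between Mcpt8 and Prss34, 0.84 between Fcer1a and Prss34 and 0.72 between Fcer1a and Mcpt8. With Prg2, Ear1 and Ear6, r was 0.04 to 0.13 for Fcer1a, 0.41 to 0.52 for Prss34 and 0.52 to 0.68 for Mcpt8, so Mcpt8 did not stand clear of the eosinophil genes. Cd200r3 of the basophil list was at -0.64 with Fcer1a, -0.48 with Prss34 and -0.24 with Mcpt8. With the remaining tested genes it was positive, at 0.54 with Prg2, 0.51 with Ear1 and 0.44 with Ear6. It was at 0.37 with Il1rl1, 0.36 with Cpa3 and 0.17 with Gata2. Cpa3 was at 0.89 with Ear1 and 0.80 with Mcpt8. Il1rl1 and Gata2 varied together, at 0.92, and r between Il1rl1 and Prg2 was 0.01.

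**Figure D3:**
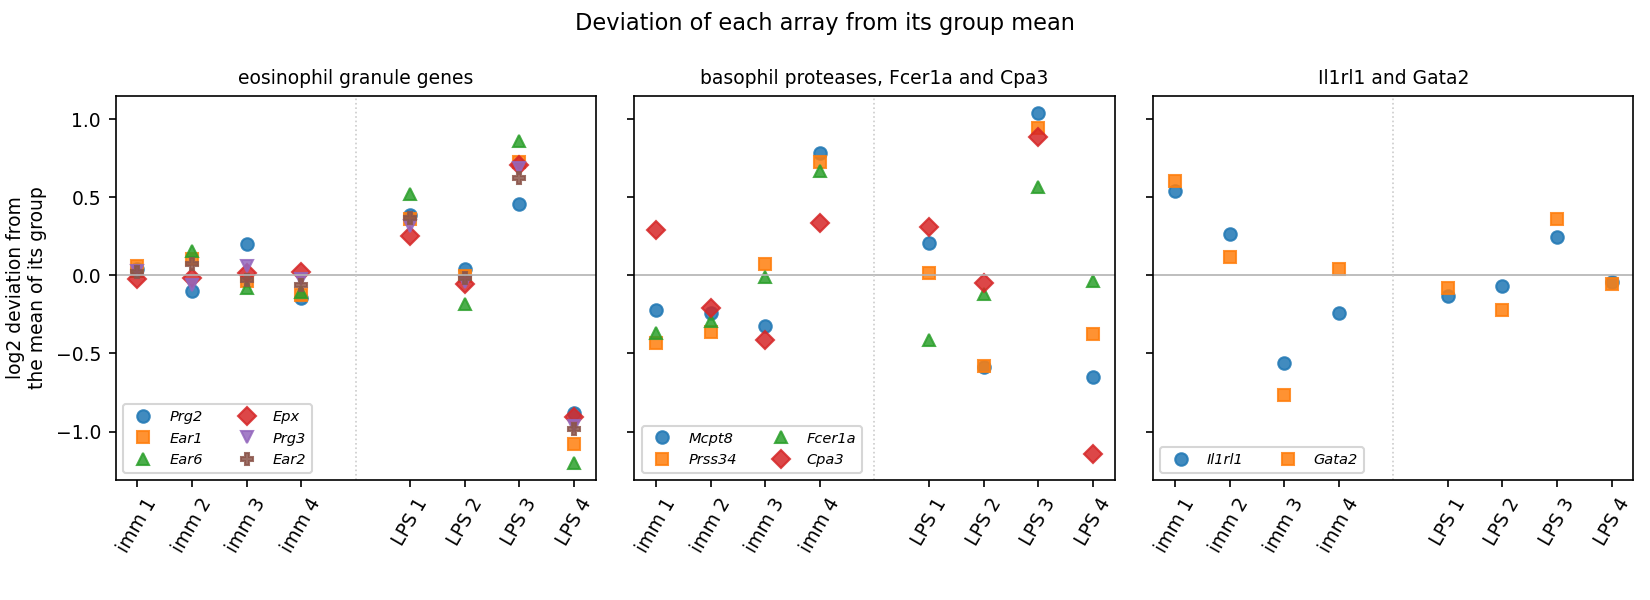
Log2 deviation of each array from the mean of its group for eosinophil granule genes, for the basophil genes with Cpa3, and for Il1rl1 with Gata2; imm 1 to 4 are the immature replicates. The eosinophil genes lie near 0 on the immature arrays and spread together on LPS replicates 3 and 4, whereas Mcpt8, Prss34 and Fcer1a are also high on immature replicate 4, and Il1rl1 and Gata2 are low on immature replicate 3.

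The genes most like Prg2, the brightest of the 10, were ranked by Pearson's r over all 12706 tested genes. Over the 8 arrays, where the difference between the groups carries most of r, the first 5 outside the 10 were Zfp787 (r = 0.990), Prg3 (0.990), Ear2 (0.987), Ier5l (0.987) and Glipr1 (0.986). Prg3, a homologue of Prg2, and Ear2 are eosinophil granule genes. By deviations from the group means, the genes most like it included Spib (0.993), Lamb3 (0.991), Rpl13a (0.972) and Dyrk1a (0.970). These 8 arrays are shared by every gene, and r is given as a description. Of the genes named by deviations, Spib, Rpl13a and Dyrk1a did not pass the test between the groups, and Lamb3 fell.

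Genes of other cells and states changed beside the 10, and their part in the results above was not tested. Of 12 tested neutrophil genes 11 fell and 1 rose, with a median log2 fold change of -2.24, among them Mpo (25.2-fold) and Ltf (11.6-fold), while Lcn2 rose 5.61-fold. The summed level of that list was 834 to 1000.3 on the immature and 733 to 793 on the LPS arrays. Of 14 tested cell cycle genes all fell, with a median log2 fold change of -1.85. Ccnb2 fell 7.49-fold and Ccna2 6.46-fold, and the summed level went from 154 to 276 down to 47.9 to 82.2. Of 11 tested progenitor genes 5 fell and 4 rose, with a median of -0.51, which was -0.21 without immature replicate 3 and -0.12 with normexp background correction. With no scaling 2 rose. Cd34 fell 4.43-fold and Angpt1 was at least 2.43-fold lower, while Flt3 rose 6.28-fold. The bound for Angpt1 holds for the processed signal only, and with normexp background correction its log2 fold change was -0.54. The summed level of the progenitor list was 11.3 to 18.9 before and 7.33 to 8.94 after LPS. The eosinophil list, by comparison, was at 469 to 511 before and 172 to 236 after LPS.

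Macrophage and dendritic cell genes went both ways. Of 8 tested macrophage genes 4 fell and 1 rose, with a median log2 fold change of -0.89. Mrc1 fell 18.7-fold and C1qa 4.70-fold, while Adgre1 rose 1.91-fold. The summed level of the macrophage list was 375 to 444 before and 338 to 399 after LPS. Of 12 tested dendritic cell genes 5 fell and 4 rose, with a median of 0.03, which was -0.15 with each array centred on its median. Cd209a was at least 38.2-fold lower by the probe that represented it, and Cd24a fell 4.47-fold, while Flt3, also in this list, rose 6.28-fold. The size for Cd209a is not firm. Another Cd209a probe gave a smaller fall, a log2 fold change of -3.64, and with normexp background correction the gene was at -3.55. The summed level of the list was 959 to 1033 before and 999 to 1131 after LPS. Genes that build and release granules also went both ways. Of 14 tested 2 fell, 5 rose and 7 did not pass, with a median of 0.10. Srgn, the granule proteoglycan core, rose 1.99-fold and Unc13d, a priming factor of granule release, 1.84-fold, whereas the granule protease Ctsg fell 14.6-fold. With each array centred on its median, 4 of these 14 fell and 3 rose, with a median of -0.08.

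**Figure D4:**
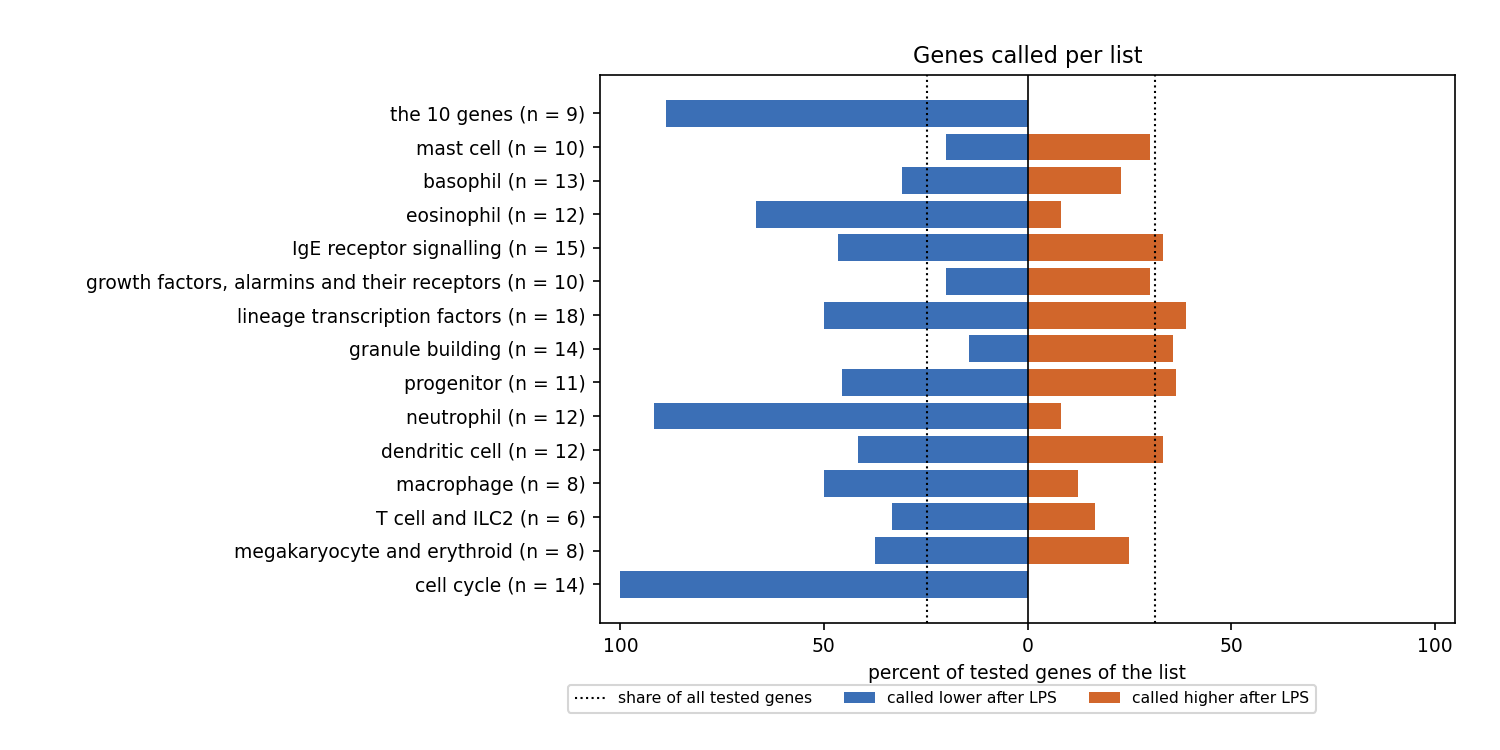
Percent of the tested genes of each list that fell (blue, to the left) or rose (orange, to the right) after LPS (limma, adjusted p under 0.05), with n the number tested and dotted lines at the share of all tested genes (24.7% and 31.4%). The bars of the 10 genes and of the eosinophil, neutrophil and cell cycle lists reach far to the left, and the mast cell bar stays short of both dotted lines; lists share some genes.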

How the data were processed

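Per the labels, TRIzol was used to extract total RNA, DNase I to digest DNA and Cy3 as the dye. Per the file headers, the scans were quantified in Agilent Feature Extraction 11.0.1.1. The deposited processed signal is an intensity, background-subtracted and not scaled between arrays. The deposited files also hold median spot and background intensities and flags.

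Outlier-flagged spots were left out, log2 signals were averaged per probe, and each array was scaled by subtracting its 75th percentile over spots outside the controls. Of 55681 probes, 27509 matched a gene by transcript accession in RefSeq. The probe with the highest mean represented a gene, tested when well above background on all 4 arrays of a group. Groups were compared with lmFit and eBayes (limma 3.58.1, R 4.3.3, version 1.17.8 of data.table), two-sided, Benjamini-Hochberg adjusted over 12706 genes and called at 0.05. The code was tested on simulated data. A fold is a bound where a group had no array above background: the dim arrays then take the higher of their own level and the lowest level above background. Bounds are for the processed signal and need not hold with another background correction.

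The 10 genes and all lists were chosen with earlier results of these data known. Named genes are the 10, the 2 largest called changes in the commoner and the 1 in the other direction of each list, and Kit, Cd200r3, Epx, Siglecf, Itgax and H2-Aa. The naming rule also covers the 5 genes most like Prg2 by each of 2 measures. Genes outside it are marked, and 1 gene it names is not reported here. The number of arrays limits the precision. Whether same-numbered samples form pairs is not given by the labels. Same-numbered deviations correlated at 0.19, 0.02, 0.05 and -0.10, and with 4 arrays a group these values cannot decide it. The alternatives covered scaling, background correction, dim probes, probe choice, a replicate block and leaving out arrays. Normexp (offset 50) used the median signal, as the files here hold no mean signal. Promoters were searched in Python 3.11.15 (Biopython 1.88) and figures drawn with matplotlib 3.10.9.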

Additional observations from a re-analysis of the deposited data

Results flagged for a closer look

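In 4 of the 120 groups of 4 arrays examined, 1 array lay far from the others by Dixon's ratio, the gap to the nearest array over the range of the group. Chance marks about 1 in 20 groups. Mcpt8 was high on immature replicate 4, at 1.86 against 0.76 to 0.86 on the other immature arrays, a ratio of 0.908. Kit was low on immature replicate 2, at 0.24 against 0.73 to 0.77, a ratio of 0.931. Gata3 was high on LPS replicate 3, at -1.72 against -2.70 to -2.54, a ratio of 0.838. Cd24a was high on LPS replicate 3, at 3.74 against 3.46 to 3.51, a ratio of 0.841.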

How the results depend on the processing

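Of 21 alternatives, 2 were added after the data were seen (immature replicates 1 and 2 averaged, and immature replicate 3 left out with LPS replicate 4). Among the 10 genes, 8 fell under each alternative except when a probe had to be above background on all arrays, where 7 of 8 tested fell and Fcer1a was not tested. With a replicate block 8 fell, and 6606 of all genes were called. With no filter on dim probes 10759 of all genes were called, against 7124. Leaving out 1 array gave 6181 to 7899 over all genes and 8 for the 10 genes. The log2 fold change of Il1rl1 ranged from -4.11 to -3.62 and that of Prg2 from -1.64 to -1.07. The share of calls that rose was 56.0%, but 38.5% with each array centred on its median, 35.3% with no scaling and 70.9% with no filter. Over all genes the median log2 fold change moved from 0.06 to -0.12 and -0.15 with the first 2 of these. Small list counts moved when 1 array was left out. Genes that rose went from 1 to 2 in the eosinophil list without LPS replicate 3, and in the T cell list without immature replicate 3 or LPS replicate 4. In the megakaryocyte list they went from 2 to 1 without each array except immature replicate 3 and LPS replicate 4. Growth factor genes that fell went from 2 to 1 without immature replicate 1, 2 or 4 or LPS replicate 1 or 2. With immature replicate 3 and LPS replicate 4 both left out, the basophil median was -0.64 and the progenitor median -0.16. The megakaryocyte median of -0.78 was -0.20 with normexp. Naming by accession alone is how all probes were named, so it was not run apart. Zfp787 lost its call under 8 alternatives, and Spib and Rpl13a gained one under 1 and 3. The cause was not tested. Signal near background limits Fcer1a and Ms4a2.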

Other observations

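Lists of lineages that share GATA factors with these cells changed in both directions, as did all tested genes (24.7% lower and 31.4% higher). Of 6 tested genes of T cells and type 2 innate lymphocytes 2 fell (Gata3 and Cd2, the latter above background on 1 LPS array), 1 rose and 3 did not pass, with a median log2 fold change of 0.08, which was -0.09 with each array centred on its median. Il7r rose 2.16-fold. The summed level of the list was 11.6 to 17.7 on the immature and 20.4 to 25.4 on the LPS arrays, and Cd8a and Klrg1 were not well above background on any array. Of 8 tested megakaryocyte and erythroid genes 3 fell, 2 rose and 3 did not pass, with a median of -0.78. Tfrc, the transferrin receptor, fell 4.02-fold, Hba-a1 was at least 2.52-fold lower, and Pf4, a platelet chemokine, rose 1.98-fold. The bound for Hba-a1 holds for the processed signal only, and over the alternatives its log2 fold change came as close to 0 as -0.36. Klf1 and Hbb-bs were not well above background on any array.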
